A study of Bos taurus with 48 samples.

Results

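Oocytes were compared with the cumulus cells closest to them, the innerCCs, in 8 cumulus-oocyte complexes (COCs) of Bos taurus, numbered 185 to 192. The comparison used 16 of the 48 libraries of the study, 8 from oocytes and 8 from innerCCs, paired by COC number. COCs were aspirated post mortem from small antral follicles of slaughterhouse ovaries, none was treated, and neither the age nor the genotype of the cows is given in the sources used here. Trypsin and pipetting first removed the outer cumulus cells (outerCCs) and then the remaining few layers, which are the innerCCs, leaving a denuded oocyte. An innerCC library therefore holds a pool of cells from 1 COC, and an oocyte library a single cell. PolyA+ RNA was amplified with SMART-seq2, a protocol made for minute RNA inputs. Cumulus RNA was first extracted with Trizol and oocytes were lysed directly, so that extraction and sample type cannot be told apart. The deposited values are FPKM, fragments scaled to transcript length and library size, for each Ensembl gene.

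The fully grown oocyte and its cumulus cells are joined by gap junctions and by transzonal projections that cross the zona pellucida. The oocyte stores maternal mRNA for meiosis and the first embryonic divisions and secretes growth factors of the TGF-beta family. Cumulus cells, a specialised form of granulosa cell, metabolise glucose for the oocyte, help to hold it in meiotic arrest, and form a hyaluronan matrix around it before ovulation.

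The COCs were chosen by the number of genes that their innerCC libraries held over 0.5 FPKM. That number was 5876 to 10295 in COCs 185 to 192, with a median of 9521.5. The lowest library taken in was that of COC 192 (5876 genes), and the highest left out was that of COC 178 (2639 genes). These numbers set the choice of libraries and are given as a description, with no test. Oocytes of the same 8 COCs held 9949 to 11340 genes over 0.5 FPKM (median 10721).

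A few genes took a large share of the innerCC signal. The 10 most abundant genes of each library held 13.8% to 70.1% of its summed FPKM in innerCCs (median 38.7%) and 5.58% to 11.2% in oocytes (median 9.84%). The 10 genes of highest mean FPKM in innerCCs had no symbol in the sources used here, and all 10 were lower in oocytes. The first of them, ENSBTAG00000043570, had a median of 29821 FPKM in innerCCs and 1152 FPKM in oocytes. These shares enter every FPKM of a library, and results are therefore given below under other scalings where these change them. Fragment counts are not in the tables, and the depth of each library is therefore unknown. The paper reports more fragments on average for oocytes than for innerCCs over all its COCs.

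Defining markers matched the sample types. Of 12 oocyte markers, 6 could be matched to an identifier (GDF9, BMP15, FIGLA, NOBOX, NLRP5 and ZAR1), and their summed FPKM was 1153 to 1847 in oocytes and 0.264 to 85.2 in innerCCs. Of 13 cumulus and granulosa markers, 3 could be matched (INHA, INHBA and CYP19A1), with a summed FPKM of 228 to 1882 in innerCCs and 0 to 162 in oocytes. The 6 oocyte markers and CYP19A1 took their symbol only from lists that the study chose as specific on these samples. INHA and INHBA are on such a list as well, so the match of markers and sample types is not independent evidence. In each direction 1 library stood apart. The innerCC library of COC 190 had 85.2 FPKM of the oocyte markers, against 0.264 to 19.8 in the other innerCCs, and the oocyte library of COC 191 had 162 FPKM of the cumulus markers, against 0 to 4.63 in the other oocytes. The innerCC library of COC 192 held the fewest genes and the lowest sum of cumulus markers, 228 FPKM. For some of the genes with extreme values in these libraries, the difference without them is given as well.

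**Figure D1:**
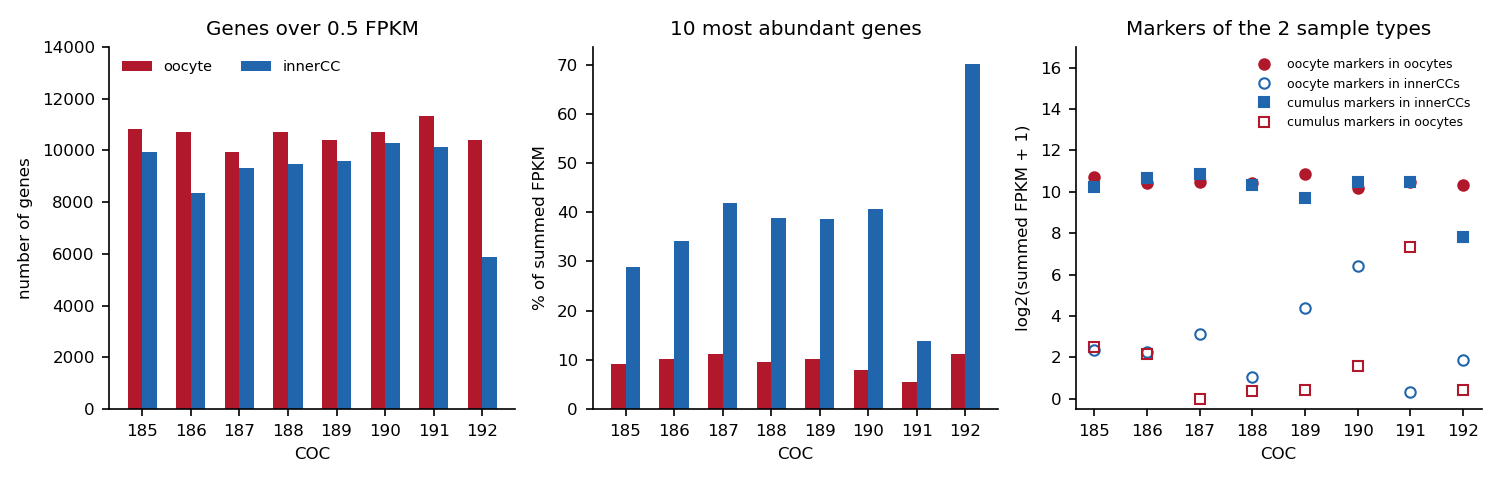
Number of genes over 0.5 FPKM (left), share of the summed FPKM held by the 10 most abundant genes (middle) and summed FPKM of 6 oocyte and 3 cumulus markers on a log2 scale (right), in the oocyte (red) and innerCC (blue) library of each COC. Filled symbols in the right panel are markers in their own sample type and open symbols markers in the other type, which were highest in the innerCCs of COC 190 (85.2 FPKM) and the oocyte of COC 191 (162 FPKM).

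Among all libraries, oocytes resembled each other more than innerCCs did. Over the genes tested, Spearman's rho between 2 oocyte libraries had a median of 0.921 (0.834 to 0.951, 28 pairs), and between 2 innerCC libraries a median of 0.851 (0.651 to 0.924, 28 pairs). An oocyte and the innerCCs of its own COC had a median rho of 0.417 (8 pairs), and an oocyte and the innerCCs of another COC 0.419 (56 pairs). These correlations run across genes, which are not independent replicates, and libraries recur among the pairs. These differences in likeness were not tested. For the genes that passed the filter in both sample types, the median SD over libraries on the log2 scale was 0.523 in oocytes and 0.770 in innerCCs. Without COCs 191 and 192 these were 0.540 and 0.644.

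Genes were tested where at least 4 of the 8 libraries of either type had over 0.5 FPKM, which left 12157 of 24616 genes. Of these, 7975 passed in both types, 2799 in oocytes only and 1383 in innerCCs only. Differences are given on the log2(FPKM + 1) scale as oocyte minus innerCC, with the standard error of limma's fit over 8 libraries of each type, and understate the change of low genes. A gene was called at an FDR under 0.01 (Benjamini-Hochberg). Of the genes tested, 6140 were higher in oocytes (50.5%) and 1744 lower (14.3%), and 9398 (77.3%) had an unadjusted p under 0.05. The groups of 8 libraries did not overlap for 3849 genes higher in oocytes (31.7%) and 634 genes lower (5.22%). Of the called genes, 830 were higher and 134 were lower by more than 4 on the log2 scale. A gene that passed the filter through 1 type only had to lie on that side, and those genes made up 2138 of the higher calls (76.4% of those tested through oocytes) and 855 of the lower calls (61.8% of those tested through innerCCs). Among the genes that passed in both, 4002 were higher (50.2%) and 889 lower (11.1%).

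The balance of higher and lower calls moved with the scaling of the libraries, as shown in the plot of calls by scaling. The median log2 difference over all genes tested was 0.95 with FPKM as deposited. It was 0.06 with libraries scaled to the same 75th percentile, which gave 3589 genes higher and 3388 lower, and 0.32 with scaling by median ratio, which gave 4326 and 2901. Higher calls were 77.9% of all calls as deposited and 51.4% with the 75th percentile. Of the 1744 lower calls, 1742 (99.9%) were also called lower under all 4 scalings tried. Each scaling lowered the median difference, so that few lower calls could be lost. The number of lower calls rose to between 2083 and 3388. Of the 6140 higher calls, 3589 (58.5%) were called higher under all 4, and 16 were called lower under at least 1. In bulk samples such as the innerCCs, fewer cells of a type and less RNA per cell cannot be told apart.

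**Figure D2:**
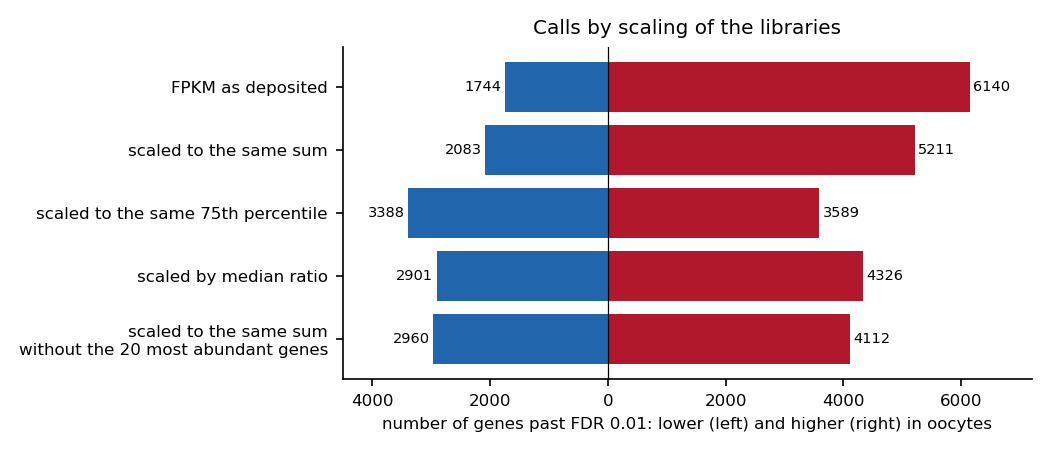
Number of genes called at an FDR under 0.01 by limma as lower (blue, left) or higher (red, right) in oocytes than in innerCCs, for FPKM as deposited and for 4 scalings of the libraries. Lower calls ranged from 1744 to 3388 and higher calls from 3589 to 6140.

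The largest differences separated the sample types in nearly every library. The 10 genes with a symbol that were highest above innerCCs in all 8 COCs were MT3, SPATA22, GDF9, CLDN10, KPNA7, BMP15, GTF2A1L, RGS2, BSP1 and GNG12, with differences of 7.25 to 7.94. The 10 lowest were INHA, FOS, INHBA, KRT2, PTGR1, C11H2orf40, IHH, JUN, CYR61 and SERPINH1, with differences of -8.08 to -5.73. All 20 were called in the same direction under every scaling. Of the genes tested, 30.7% had a symbol, and 2440 of these 3730 took it only from lists that the study had chosen as specific to oocytes or cumulus cells on these samples. The direction of such a gene is not independent evidence. For the 1290 genes named through the ligand-receptor table, 642 (49.8%) were higher and 176 (13.6%) lower, close to the shares of all genes tested.

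**Figure D3:**
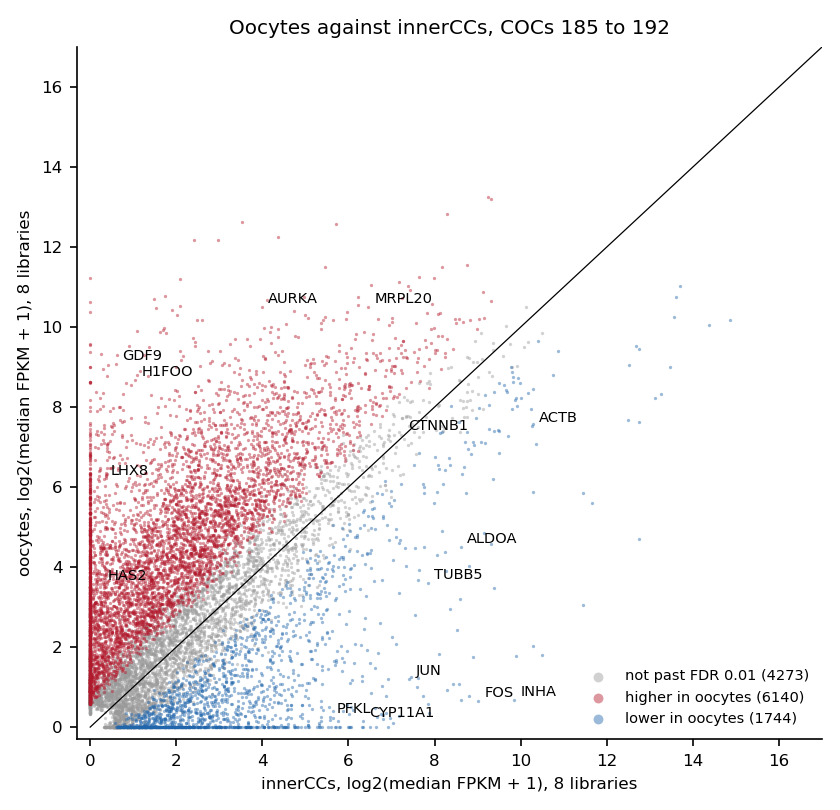
Median FPKM over 8 oocyte libraries (y axis) against the median over 8 innerCC libraries (x axis), as log2(median FPKM + 1), for the 12157 genes tested, with the line of equal values. Red genes (6140) were called higher and blue genes (1744) lower in oocytes, and grey genes (4273) were not called.

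Growth factors of the oocyte were low or listed at 0 in innerCCs. GDF9 (ENSBTAG00000009478), which directs cumulus differentiation and expansion, had 347, 537 and 824 FPKM (lowest, median and highest) in oocytes and 0, 0.505 and 12.5 FPKM in innerCCs. The groups did not overlap, and the 2 highest innerCC values were those of COCs 190 and 189. GDF9 was higher in oocytes by 7.74 (standard error 0.50, adjusted p = 7.7e-11), and by 8.20 without COCs 190, 191 and 192. Its partner BMP15 (ENSBTAG00000045782) had 164, 435 and 768 FPKM in oocytes and 0, 0.308 and 30.2 FPKM in innerCCs, a difference of 7.54 (standard error 0.60, adjusted p = 1.2e-09). The highest innerCC value was again that of COC 190, and the difference was 8.08 without COCs 190 to 192. BMP4 was higher by 2.46 (standard error 0.27, adjusted p = 1.1e-07). No innerCC library had a BMP6 value above 0, and it had 0.706, 2.32 and 5.21 FPKM in oocytes. All 4 growth factors tested were higher, against 50.5% of all genes tested. All 4 are on the study's list of oocyte genes, and 3 were named only through it. BMP15, BMP4 and BMP6 passed the filter through oocytes only, so the direction of the growth factors is not independent evidence.

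Receptors and SMADs of the same family were named through the ligand-receptor table for 12 of the 13 members tested. Of the 13, 10 were higher in oocytes, 0 lower and 3 not called, against 50.5% higher and 14.3% lower over all genes tested. Their median difference was 0.95, equal to the median over all genes tested. ACVR1, a type I receptor, had 24.5, 33.3 and 56.0 FPKM in oocytes and 0.264, 0.729 and 1.71 FPKM in innerCCs, a difference of 4.38 (standard error 0.24, adjusted p = 6.9e-12). BMPR1B and BMPR1A, type I receptors for BMPs, were higher by 3.29 and 2.56 (standard errors 0.27 and 0.25), and TGFBR1 by 2.75 (standard error 0.28). For these 4 receptors the groups did not overlap, as for 31.7% of all genes tested with oocytes higher. Their calls held under all 4 scalings. The type II receptors BMPR2, ACVR2A and ACVR2B were not called, at 0.74 (95% interval 0.02 to 1.46), 0.48 (-0.08 to 1.04) and 0.25 (-0.93 to 1.43). The SMADs carry the signal of these receptors to the nucleus. SMAD1 was higher by 2.496 as deposited and called under every scaling, whereas SMAD2 was higher by 0.87 as deposited and was called lower under 1 scaling.

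Transcription factors of the germ line were mostly higher in oocytes. Of 7 transcription factors tested, 6 were higher in oocytes, against 50.5% of all genes tested. TAF4B was not called (0.66, adjusted p = 0.013), and the list median was 3.24. All 7 took their symbol only from lists chosen by the study and 6 passed the filter through oocytes only, so their direction is not independent evidence. LHX8, needed for early oocyte development, had 53.7, 72.7 and 83.5 FPKM in oocytes and 0, 0.251 and 0.793 FPKM in innerCCs. Its difference was 5.81 (standard error 0.20, adjusted p = 6.8e-14) with no overlap. FIGLA, which activates zona pellucida genes, was higher by 6.78 (standard error 0.42). NOBOX was higher by 3.24 (standard error 0.51), but the groups overlapped through the innerCCs of COC 190, where it reached 15.1 FPKM, above the oocyte median of 14.97 FPKM.

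All 6 maternal-effect genes tested were higher, against 50.5% of all genes tested, with a median of 6.37. These genes act in the egg and early embryo, and all 6 took their symbol from the study's list of oocyte genes. As 4 of them also passed the filter through oocytes only, their direction is not independent evidence. PADI6, a part of the cytoplasmic lattices of the egg, had 64.4, 151 and 267 FPKM in oocytes and at most 2.73 FPKM in innerCCs. It was higher by 6.74 (standard error 0.34, adjusted p = 3.2e-12), with no overlap. NLRP9 and H1FOO, the oocyte linker histone, were each higher by 6.86 (standard errors 0.48 and 0.70). In the innerCCs of COC 190 H1FOO reached 113 FPKM, and its difference was 7.69 without COCs 190 to 192. Only KHDC3L overlapped between the groups, since it was listed at 0 in at least 1 oocyte library. Over all genes tested, 31.7% did not overlap with oocytes higher.

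Regulators of stored mRNA were likewise higher in oocytes, in 9 of 9 members tested (50.5% over all genes tested), with a median of 4.84. Of the 9, 8 took their symbol only from lists chosen by the study and 7 passed the filter through oocytes only. Among all genes that passed through oocytes only, 76.4% were higher and 0 lower, so the direction of these members is not independent evidence. IGF2BP3, an RNA-binding protein that stabilises maternal mRNA, had 77.1, 100 and 199 FPKM in oocytes and 0, 0.0760 and 1.54 FPKM in innerCCs, a difference of 6.35 (standard error 0.26, adjusted p = 2.9e-13). The groups did not overlap. EIF4E1B, a cap-binding protein of oocytes, was higher by 5.79 (standard error 0.43), and YBX2, which packages stored mRNA, by 5.30 (standard error 0.49). PATL2, another repressor of translation, was listed at 0 in all 8 innerCC libraries and had 15.9 to 37.2 FPKM in oocytes. CNOT7, a deadenylase subunit found in most cells, was the single member named through the ligand-receptor table and the smallest of the list, at 2.21. Its call held under 2 of the 4 scalings.

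Among 13 genes of the meiotic cell cycle and spindle, 11 were higher, 1 lower and 1 not called (median 4.16). Over all genes tested, 50.5% were higher and 14.3% lower. AURKA, the kinase of spindle poles, had 894, 1442 and 1879 FPKM in oocytes and 9.42, 14.8 and 157 FPKM in innerCCs. It was higher by 5.82 (standard error 0.46, adjusted p = 1.0e-09), and the highest innerCC value came from COC 190. SYCP3 and WEE2 were higher by 7.24 and 7.13 (standard errors 0.48 and 0.36). SYCP3 is a part of the synaptonemal complex, and WEE2 is an oocyte kinase that restrains the resumption of meiosis. The paralogue WEE1 went the other way, with 0, 0.0738 and 0.648 FPKM in oocytes and 2.43, 5.02 and 7.78 FPKM in innerCCs, a difference of -2.23 (standard error 0.23, adjusted p = 4.0e-08) with no overlap. MOS, the kinase behind metaphase II arrest, was higher by 6.41 (standard error 0.78). It was one of the 3 most variable called genes in innerCCs, from 0 to 94.4 FPKM, the highest again in COC 190, and its difference was 6.69 without COCs 190 to 192. Of the 13, 8 took their symbol only from lists chosen by the study, and their direction is not independent evidence. The filter was passed through oocytes only by 6 of the 13 and through innerCCs only by 1. Of the 5 members named through the ligand-receptor table, 4 were higher (AURKA, AURKB, MAD2L1 and CDC20) and CDC25A was not called. The call for CDC20, at 2.25, did not hold under any of the 4 scalings.

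**Figure D4:**
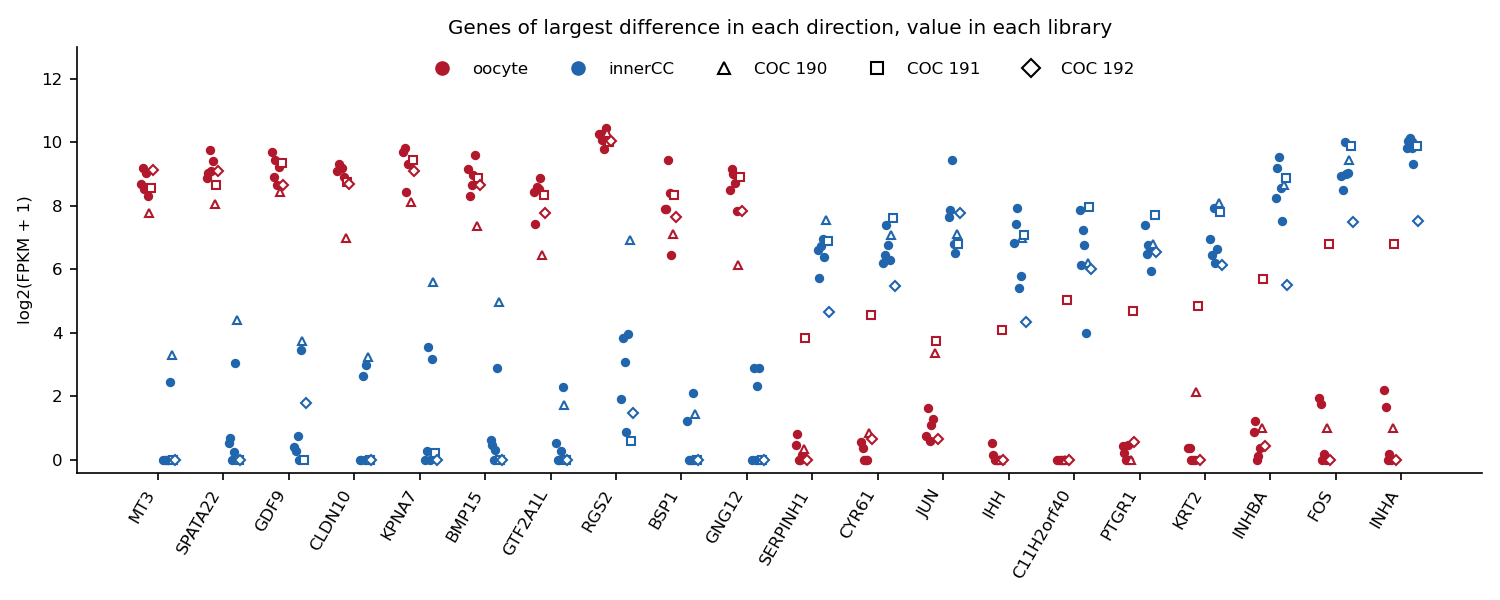
Value of log2(FPKM + 1) in each oocyte (red) and innerCC (blue) library for the 10 genes with the largest difference in each direction. Open triangles, squares and diamonds mark COCs 190, 191 and 192, and the oocyte of COC 191 (open red squares) stood above the other oocytes for 10 of 10 genes on the right, as for INHA at 109 FPKM.

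Cyclic nucleotides hold the oocyte in meiotic arrest. Of 6 genes of oocyte cAMP control tested, 4 were higher (50.5% over all genes tested) and 2 not called, with a median of 1.12. Only 2 were called under every scaling, and with the 75th percentile the median was 0.12. The filter was passed through oocytes only by 3 of the 6. PRKAR1A, a regulatory subunit of protein kinase A, was higher by 1.11 as deposited but called under 0 of the 4 scalings, with a difference of -0.50 under the 75th percentile. GPR12 and PDE3A were listed at 0 in all 8 innerCC libraries, and PDE3A, the phosphodiesterase that degrades oocyte cAMP, had 1.34, 3.96 and 6.42 FPKM in oocytes. GPR3, a receptor that keeps cAMP high, was higher by 1.13 (standard error 0.30, adjusted p = 0.0025), but not past the threshold without COC 185, 188 or 189 (adjusted p up to 0.012). The phosphodiesterases PDE5A and PDE9A and the cGMP-dependent kinase PRKG1 were higher by 3.40, 2.38 and 2.88 (standard errors 0.24, 0.30 and 0.27), and PRKG2 was listed at 0 in all innerCCs. All 4 of these genes of the cGMP pathway passed the filter through oocytes only and were named through the study's list of oocyte genes.

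The granulosa identity genes were lower in oocytes in all 8 members tested, against 14.3% of all genes tested, with a median of -2.38. INHA (ENSBTAG00000009972), the inhibin alpha subunit, had 0, 0.589 and 109 FPKM in oocytes and 184, 919 and 1128 FPKM in innerCCs. The groups did not overlap, and the oocyte value of 109 FPKM, in COC 191, stood far above the next, 3.61 FPKM. The difference was -8.08 (standard error 0.75, adjusted p = 1.1e-08), and -9.004 without COCs 191 and 192. INHBA (ENSBTAG00000002912), the activin beta A subunit, had 0, 0.606 and 51.4 FPKM in oocytes and 44.4, 393 and 745 FPKM in innerCCs. It overlapped only because the oocyte of COC 191 exceeded the innerCCs of COC 192, and its difference of -7.04 (standard error 0.69) became -8.02 without these COCs. The transcription factors GATA6, GATA4 and NR5A1 differed by -3.96, -2.48 and -1.90 (standard errors 0.31, 0.30 and 0.28). Of the 8, 4 were named only through the study's lists of cumulus genes, and all 8 were called lower under every scaling. The filter was passed through innerCCs only by 6 of the 8. Among all genes that did so, 61.8% were lower and 0 higher, so the direction of these 6 is not independent evidence.

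Steroid synthesis was represented by 3 genes. CYP11A1, which starts steroid synthesis from cholesterol, had 0, 0.116 and 16.2 FPKM in oocytes and 24.5, 79.8 and 225 FPKM in innerCCs, a difference of -5.73 (standard error 0.53, adjusted p = 8.8e-09). CYP19A1, the aromatase, differed by -2.29 (standard error 0.35), with 0.187 to 9.25 FPKM in innerCCs. HSD17B12, which also elongates fatty acids, was higher in oocytes by 1.85 (standard error 0.28), in 2 of the 4 scalings. In cholesterol synthesis, HSD17B7 was lower at -2.05 (standard error 0.37), EBP was higher at 1.46 and SREBF2 was not called at -0.54 (adjusted p = 0.051). SREBF2 was called lower under 3 of the 4 scalings (adjusted p = 0.0020 with the 75th percentile). EBP was called higher under 1 of the 4 scalings and had a negative difference, -0.10, under the 75th percentile.

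Several enzymes of glycolysis were lower in oocytes. Of 5 genes tested, 4 were lower (14.3% over all genes tested) and HK1 was not called, with a median of -3.78. PFKL, the liver form of phosphofructokinase, had 0, 0.190 and 6.08 FPKM in oocytes and 18.9, 46.8 and 78.2 FPKM in innerCCs, a difference of -4.94 (standard error 0.39, adjusted p = 1.1e-09). The groups did not overlap, and the highest oocyte value was that of COC 191. PFKP, the platelet form, differed by -3.78 (standard error 0.32), and ALDOA, the aldolase of the next step, by -4.14 (standard error 0.42). HK2 differed by -1.37 (standard error 0.37) and was not called without COC 187 or 188 (adjusted p up to 0.011), while HK1, the housekeeping hexokinase, had medians of 21.4 FPKM in oocytes and 14.5 FPKM in innerCCs (0.52, 95% interval -0.10 to 1.14, adjusted p = 0.12). HK1 was called lower under 1 of the 4 scalings, the 75th percentile. PFKL, ALDOA and HK1 were named through the ligand-receptor table, and PFKL is also on the study's list of cumulus genes. PFKL, PFKP and HK2 passed the filter through innerCCs only, so they had to lie on that side.

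Amino acid transporters divided into 3 higher and 3 lower, against 50.5% higher and 14.3% lower over all genes tested, with a median of 0.14. SLC38A1, SLC38A2 and SLC38A5, sodium-coupled transporters of neutral amino acids, were lower in oocytes at -1.69, -5.14 and -1.24 (standard errors 0.30, 0.40 and 0.20). SLC38A2 had 0, 0.107 and 8.04 FPKM in oocytes and 21.6, 52.8 and 80.5 FPKM in innerCCs. Conversely, SLC1A5, a glutamine transporter, had 13.97, 47.1 and 71.8 FPKM in oocytes and 0.353, 0.615 and 8.24 FPKM in innerCCs, a difference of 4.16 (standard error 0.45, adjusted p = 8.4e-08). SLC7A2, a transporter of cationic amino acids, was higher by 1.52, and SLC7A11, the cystine transporter, was listed at 0 in all innerCCs with 1.28 to 4.28 FPKM in oocytes. For none of these 6 genes did the groups overlap (over all genes tested, 31.7% did not overlap with oocytes higher and 5.22% with oocytes lower), and all 6 calls held under every scaling. Of the 6, 5 took their symbol only from lists chosen by the study, and 5 passed the filter through 1 sample type only.

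Genes of cumulus expansion differed in both directions, with 2 higher and 3 lower in oocytes (50.5% and 14.3% over all genes tested). HAS2, which synthesises hyaluronan, was higher in oocytes, with 8.09, 10.8 and 26.0 FPKM against 0, 0.192 and 0.418 FPKM in innerCCs. The groups did not overlap, and the difference was 3.58 (standard error 0.26, adjusted p = 2.7e-10). CD44, the hyaluronan receptor, was also higher, by 1.64 (standard error 0.22), with at most 0.279 FPKM in innerCCs. EGFR, the receptor of the EGF-like factors, was lower in oocytes, with 0.262, 1.19 and 1.83 FPKM against 5.37, 7.83 and 16.4 FPKM, a difference of -2.29 (standard error 0.26, adjusted p = 1.6e-07). Its ligand BTC and the protease ADAMTS1 were lower at -1.82 and -0.76. In libraries not used above, the oocytes and outerCCs of COCs 176 to 184, HAS2 differed by 3.81 and CD44 by 1.86 in the same direction, oocyte minus outerCC, and EGFR by -3.37. HAS2 and CD44 took their symbol only from the study's list of oocyte genes, chosen on samples that included these COCs, and their direction there is not independent evidence. Of the 5 genes of cumulus expansion tested, only EGFR passed the filter in both sample types.

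Immediate early genes, transcribed within minutes of a stimulus, were mostly lower in oocytes. Of 9 tested, 7 were lower (14.3% over all genes tested), 1 higher and 1 not called, with a median of -3.60. The filter was passed through innerCCs only by 3 of the 9. FOS (ENSBTAG00000004322) had 0, 0.579 and 110 FPKM in oocytes and 179, 518 and 1031 FPKM in innerCCs. It did not overlap between the groups, the 110 FPKM being that of the oocyte of COC 191. The difference was -7.58 (standard error 0.75, adjusted p = 2.3e-08), and -8.34 without COCs 191 and 192. JUN, its partner in AP-1, had 0.500, 1.31 and 12.4 FPKM in oocytes and 91.2, 170 and 691 FPKM in innerCCs (-5.85, standard error 0.49). MYC and CYR61 were lower at -4.62 and -5.78 (standard errors 0.44 and 0.53), and NR4A1 was not called at -0.70 but was lower under 3 of the 4 scalings. KLF4 was the exception, higher in oocytes by 1.70 (standard error 0.37), but in 1 of the 4 scalings only, and oocytes and outerCCs of COCs 176 to 184 differed by -0.04 for it (adjusted p = 0.93). Both cumulus cells and oocytes were exposed to trypsin, and the RNA of the sample types was extracted differently. The part of handling in these values was not tested.

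**Figure D5:**
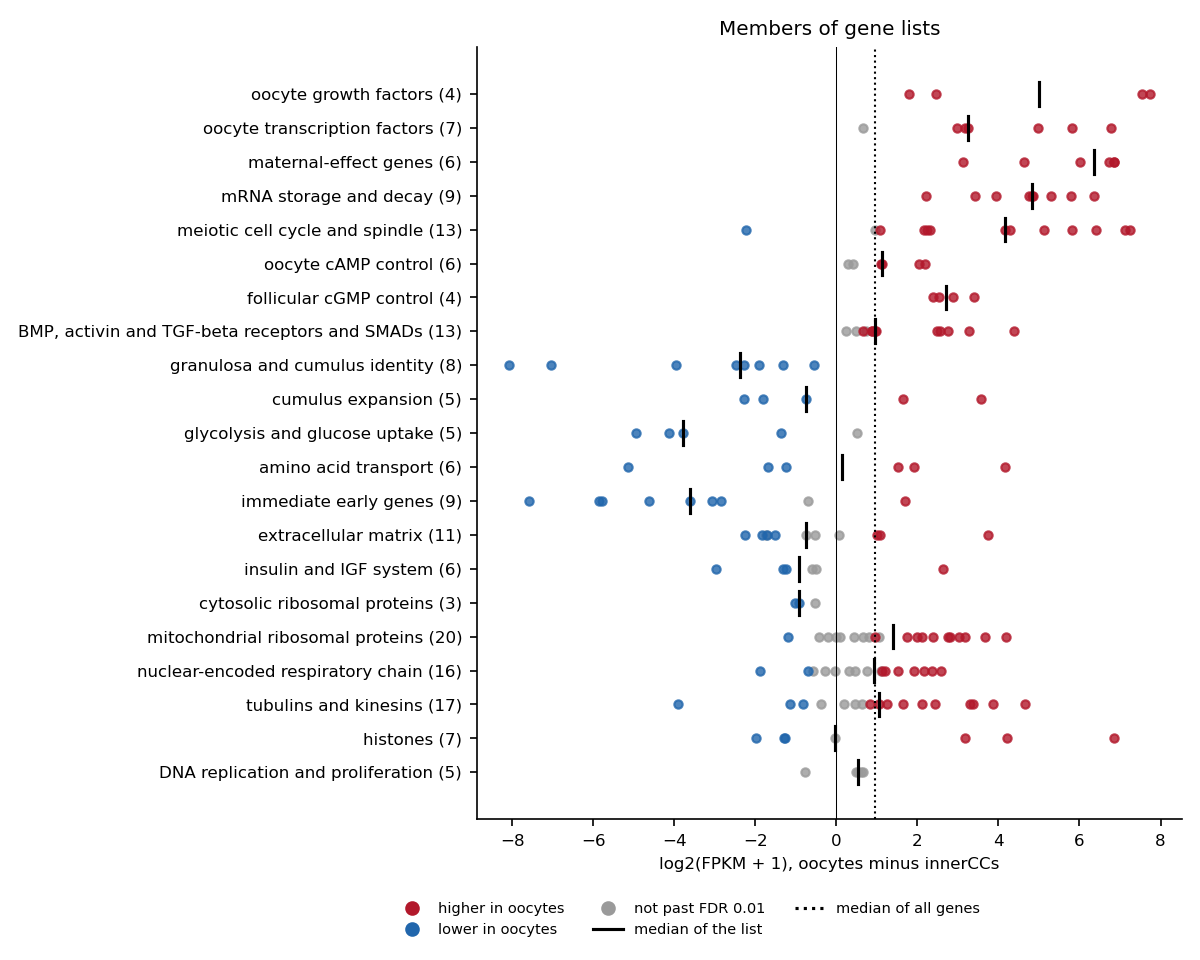
Difference in log2(FPKM + 1), oocytes minus innerCCs, for each tested member (points) of 21 gene lists, with the median of the list (black bar), the median of all genes tested (dotted line, 0.95) and the number of members in parentheses. Red points were called higher and blue points lower in oocytes at an FDR under 0.01, and grey points were not called.

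Of the cytosolic ribosomal proteins, RPLP1 was lower in oocytes at -0.92 (standard error 0.26), and RPS27A was not called at -0.52 (adjusted p = 0.10) but was called lower under 3 of the 4 scalings. RPLP1 was not called without COC 185, 186, 189 or 191 (adjusted p up to 0.013). Of 20 mitochondrial ribosomal proteins, 11 were higher, 1 lower and 8 not called, against 50.5% higher and 14.3% lower over all genes tested. Their median was 1.41 as deposited and -0.13 with the 75th percentile, where 5 were higher and 6 lower, so that no direction could be given for the family as a whole. MRPL20 had 890, 1453 and 1642 FPKM in oocytes and 26.2, 87.05 and 110 FPKM in innerCCs, a difference of 4.18 (standard error 0.28, adjusted p = 9.1e-11) as deposited and of 2.55 with the 75th percentile. MRPL24 was lower at -1.19 (standard error 0.29), with medians of 32.3 and 81.8 FPKM. Both calls held under every scaling, and both proteins belong to the large subunit of the mitochondrial ribosome.

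Of 16 nuclear-encoded subunits of the respiratory chain tested, 7 were higher, 2 lower and 7 not called, near the shares over all genes tested (50.5% and 14.3%). They had a median of 0.92 as deposited and -0.69 with the 75th percentile, where 2 were higher and 8 lower. The ATP synthase subunits ATP5B and ATP5A1 were called lower under every scaling, and differed by -1.88 and -0.70 as deposited (standard errors 0.33 and 0.22). The call for ATP5A1 was lost with the COC number as a block (adjusted p = 0.023) and when any COC but 192 was left out (adjusted p up to 0.024). NDUFB6, of complex I, had 179, 374 and 506 FPKM in oocytes and 42.1, 65.2 and 128 FPKM in innerCCs, higher by 2.36 (standard error 0.28) as deposited and by 0.73 with the 75th percentile, and called under every scaling. COX6B2, the testis form of a complex IV subunit, was listed at 0 in all 8 innerCC libraries and had 1.34 to 10.6 FPKM in oocytes.

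Of 17 tubulins and kinesins tested, 10 were higher, 3 lower and 4 not called, near the shares over all genes tested (50.5% and 14.3%), and 9 of the 17 took their symbol only from lists chosen by the study. TUBB5, a beta tubulin, had 5.97, 11.1 and 35.2 FPKM in oocytes and 84.9, 230 and 303 FPKM in innerCCs, a difference of -3.90 (standard error 0.32, adjusted p = 2.0e-09). In the other direction, TUBA3E had 14.7, 33.8 and 56.4 FPKM in oocytes and at most 1.98 FPKM in innerCCs, higher by 4.65 (standard error 0.32). KIF2C, which depolymerises microtubules at centromeres, and KIF5C, a transport motor, were higher by 3.87 and 3.31 (standard errors 0.30 and 0.20). The histones divided likewise, with H1FOO, HIST2H2AB and HIST1H2BB higher and the somatic linker histone H1F0 lower at -1.99 (standard error 0.33). Members of these families are close in sequence, and the authors' counting of unique matches may divide reads between them unevenly.

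Some genes were not called as deposited. None of 5 genes of DNA replication and proliferation was called by limma as deposited. The exact rank permutation test called 0 of the 5 as well, and 1 (CCND3) had an unadjusted p under 0.05. CCND3, a D-type cyclin, was at -0.78 as deposited (adjusted p = 0.033) but was called lower in oocytes under all 4 scalings (-1.66, adjusted p = 0.00025, with the 75th percentile) and without COC 190 (adjusted p = 0.0084). MCM2, MCM5 and MCM7, subunits of the replicative helicase, differed by 0.65, 0.62 and 0.54 as deposited and by -0.63, -0.91 and -0.98 with the 75th percentile, under which MCM7 was called lower (adjusted p = 0.0020). Beta catenin, CTNNB1, which links cadherins to the cytoskeleton, had 108, 158 and 254 FPKM in oocytes and 65.3, 149 and 322 FPKM in innerCCs. As deposited the groups overlapped over most of their range, at 0.10 (95% interval -0.54 to 0.74, adjusted p = 0.77). CTNNB1 was called lower under 3 of the 4 scalings, at -1.52 with the 75th percentile (adjusted p = 1.7e-05). CD9, an egg surface protein needed for fusion with sperm, was not called at 0.48 (adjusted p = 0.19), with medians of 10.5 and 8.12 FPKM. Of the other junction genes, CTNNA1, the alpha catenin, was higher by 1.90 (standard error 0.28) in 2 of the 4 scalings. GJB2, a connexin, was listed at 0 in all 8 innerCC libraries and had 1.24 to 4.70 FPKM in oocytes.

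In the extracellular matrix list 3 genes were higher, 4 lower and 4 not called, against 50.5% higher and 14.3% lower over all genes tested. Of the 11 genes, 10 took their symbol only from lists chosen by the study. The filter was passed through oocytes only by 3 and through innerCCs only by 7. NID2, a basement membrane protein, had 9.98, 16.3 and 19.8 FPKM in oocytes and at most 0.982 FPKM in innerCCs, higher by 3.75 (standard error 0.21, adjusted p = 1.3e-11). LAMA1 and COL1A1 were lower at -2.27 and -1.71 (standard errors 0.34 and 0.27), whereas COL1A2, the partner chain of COL1A1 in type I collagen, was higher at 1.01 (standard error 0.21). Both chains were low, with 0.206, 3.07 and 4.37 FPKM of COL1A1 in innerCCs and 0.517, 1.055 and 2.36 FPKM of COL1A2 in oocytes. COL1A1 was named only through the study's list of outerCC genes and COL1A2 only through that of oocyte genes. Their contrast is therefore not independent evidence. In the insulin and IGF system INSR and IGF1R, the receptors, were lower at -1.32 and -1.23 (standard errors 0.25 and 0.29), and of the binding proteins IGFBP4 was lower at -2.96 and IGFBP2 higher at 2.64. Under the 75th percentile scaling these lists had 7 and 4 genes lower.

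Markers of cell types other than the oocyte and the cumulus were examined in all libraries. Of 7 endothelial, 9 leukocyte and 10 stromal markers, only 3, 4 and 5 could be matched. The endothelial markers VWF, KDR and TEK had a summed level of 14.1 to 26.7 FPKM in oocytes and 0.0848 to 2.63 FPKM in innerCCs, and all 3 were higher in oocytes, at 2.29, 2.80 and 3.099. The leukocyte markers CD52, CD3E, CSF1R and FCER1G had a summed level of 58.1 to 298 FPKM in oocytes and 0 to 59.0 FPKM in innerCCs, and all 4 were higher, with CD52 at 46.9 to 284 FPKM. Of these 7 genes, 7 were called under every scaling and 6 took their symbol only from the study's list of oocyte genes. All 7 passed the filter through oocytes only. Among all genes that did so, 76.4% were higher and 0 lower (50.5% higher over all genes tested), so their direction is not independent evidence. The stromal markers COL1A1, LUM and PDGFRA were lower in oocytes and COL1A2 was higher, with a summed level of the 5 markers of 0.642 to 3.15 FPKM in oocytes and 6.47 to 22.8 FPKM in innerCCs. These 5 took their symbol only from lists chosen by the study, and each passed the filter through 1 sample type only. PDGFRA, at -0.68, was not called with the COC number as a block (adjusted p = 0.015) or without any 1 of COCs 185 and 187 to 191 (up to 0.020). None of 5 red blood cell markers could be matched. Whether these transcripts came from the labelled cells was not tested.

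Within a sample type, the called genes that varied most between libraries included 2 small RNAs. U12, a small nuclear RNA of the minor spliceosome, had 0, 134 and 617 FPKM in oocytes and was listed at 0 in 7 of 8 innerCC libraries, with 100 FPKM in that of COC 185. SNORA20, a small nucleolar RNA, had 0, 73.4 and 575 FPKM in oocytes and was listed at 0 in all 8 innerCC libraries. BLA-DQB, an MHC class II gene, varied most in innerCCs, with 0, 18.8 and 148 FPKM against a highest oocyte value of 9.17 FPKM. Its difference was -2.97 (standard error 0.94, adjusted p = 0.0079), with overlapping groups, and it was not called without COC 185, 187, 190 or 192 (adjusted p up to 0.032). Short and duplicated genes such as these can be estimated poorly from FPKM.

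ENY2 (ENSBTAG00000007387), a subunit of the SAGA coactivator and the single gene of the 5 measured by qPCR in the study that could be matched, had 590, 912 and 1260 FPKM in oocytes. InnerCCs had 30.02, 71.04 and 224 FPKM. The groups did not overlap, and ENY2 was higher in oocytes by 3.58 (standard error 0.33, adjusted p = 1.0e-08) as deposited and by 1.95 with the 75th percentile, and was called under every scaling.

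Oocytes and outerCCs of COCs 176 to 184 share no library with this comparison and were fitted in the same way over the same genes, where 4447 genes were higher (36.6%) and 3357 lower (27.6%) in oocytes. Of the 6140 genes higher above innerCCs, 4291 were also higher above outerCCs there, which is 69.9% of the first list and 96.5% of the second. Of the 1744 lower genes, 1705 were also lower, 97.8% of the first list and 50.8% of the second. In the opposite direction 33 of the higher genes and 0 of the lower genes were called. The layer of cumulus cells and the COCs both differ between these comparisons and cannot be told apart.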

How the data were processed

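PolyA+ RNA of single oocytes, innerCCs and outerCCs was measured, and the 8 oocyte and 8 innerCC libraries of COCs 185 to 192 were analysed. The authors used STAR 2.5.2 to align reads to UMD3.1, retained uniquely matching reads, took out duplicates (Picard 2.5), and deposited FPKM per Ensembl gene from Cufflinks 2.2.1. Removing duplicates can compress the highest levels. The depth of each library is unknown without counts, and no counting interval is given. Steps between low FPKM values were looked at, did not settle 1 relative depth per library and were not used. The filtered table was not used.

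Values were computed with Python 3.11.15, pandas 2.3.3, R 4.3.3 and limma 3.58.1 (eBayes without trend) on log2(FPKM + 1), with no block and Benjamini-Hochberg adjustment over 12157 genes. Adjusted p-values are limma's. The study fitted a collection batch, which the labels do not give, and none was fitted here. Each group has 8 samples from separate COCs, and whether COCs shared an animal is not given. Same-numbered samples come from 1 COC, and the correlation of their deviations had a mean of 0.0491 (-0.0772 to 0.225) against -0.00597 for other COCs.

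Symbols came from supplementary lists that pair them with identifiers, and no coordinates or sequences were used. The members and lists were chosen with earlier results of these data known. Named genes are the 10 with the largest difference in each direction with the same sign in all 8 COCs, for each list up to 4 tested members with the largest difference and up to 3 that went against its majority, markers, genes measured by qPCR, and the 3 most variable called genes of each type, with other list members where a result turned on them. ENSBTAG00000043570 was named after its values were seen. A few genes that the rule names are counted but not reported here. Scalings were to the same sum, the same 75th percentile, median ratio, and the same sum without the 20 most abundant genes. The fit was tested on simulated data.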

Additional observations from a re-analysis of the deposited data

Results flagged for a closer look

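The values below stood apart from the other 7 libraries of their sample type by Dixon's test on the log2 scale at the 95% level. It was applied to 278 groups of 8 values and marked 69. The test would mark about 1 in 20 by chance alone only if values were normally distributed. In some marked groups, such as BTC and LUM in oocytes and CD44 and CD52 in innerCCs, 7 libraries had the same value. Such a group is marked whatever the size of the remaining value, so the 69 cannot be set against 1 in 20. The marked values gathered in 4 libraries.

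The oocyte of COC 191 held 16168 genes above 0 FPKM, where the median of the oocytes was 12556. It was the highest oocyte for genes that are high in innerCCs: FOS (110 FPKM), INHA (109), INHBA (51.4), C11H2orf40 (31.6), KRT2 (27.6), PTGR1 (24.9), CYR61 (22.9), CYP11A1 (16.2), IHH (16.0), SERPINH1 (13.3), BLA-DQB (9.17), SLC38A2 (8.04), MYC (6.67), PFKL (6.08), SPARCL1 (5.32) and PFKP (2.11). It was also the highest, at low levels, for LUM (1.66 FPKM), IGFBP4 (1.58), BTC (1.04), CYP19A1 (0.938), SLC38A1 (0.627), COL1A1 (0.461), TUBGCP6 (0.240), PDGFRA (0.170) and KIF21A (0.0952). Each of these genes was lower in oocytes than in innerCCs or, for SPARCL1, not called.

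The innerCCs of COC 190 were the highest innerCC library for genes that are high in oocytes: H1FOO (113 FPKM), EBP (69.3), ASTL (62.9), CD52 (39.7), CSF1R (19.4), NLRP9 (18.4), YBX2 (16.6), NOBOX (15.1), ZAR1 (10.7), TEK (2.27), GPR3 (0.850) and COL1A2 (0.423). The oocyte of the same COC had the lowest summed FPKM of the oocytes, 410999. It was the lowest oocyte for ATP5C1 (186 FPKM), NDUFB6 (179), CLDN10 (126), GNG12 (70.1), MRPL19 (56.9), PATL2 (15.9), MRPL24 (14.5) and TBPL2 (10.8), and the highest for IGF2BP3 (199) and H1F0 (9.14).

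The innerCCs of COC 192 held 6658 genes above 0 FPKM and 5876 over 0.5 FPKM. They were the lowest innerCC library for RPS27A (400.1 FPKM), INHA (184), ALDOA (140), ATP5B (56.8), MRPL20 (26.2), IGF1R (0.570), LAMA1 (0.304) and CYP19A1 (0.187), and were listed at 0 for MRPL19 and MRPL48. The 3 COCs 190, 191 and 192 were left out together as an alternative.

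Single values stood apart in other libraries. In innerCCs these were JUN (691 FPKM) and VWF (0.469) in COC 187, U12 (100 FPKM), CD3E (0.476) and CD44 (0.279) in COC 185, and FCER1G (1.60 FPKM) in COC 191. In oocytes they were TIMP1 in COC 185, at 1.02 FPKM, and U12 in COC 189, listed at 0.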

How the results depend on the processing

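As deposited, 6140 genes were higher and 1744 lower in oocytes, with a median difference of 0.95 over all genes tested. The median moved to 1.66 with a pseudocount of 0.1, to 0.20 with no filter on low values, and to 1.64 with FPKM over 1 in all 8 libraries of either type, where 1038 genes were lower. Testing only genes that passed in both types gave 3945 higher and 856 lower, with fewer genes tested. The same 75th percentile gave 3589 higher, 3388 lower and a median of 0.064. Median ratio gave 2901 lower and a median of 0.32, and with the replicate block 4086 higher, 2762 lower and 0.32. The same sum without the 20 most abundant genes, chosen after seeing the data, gave 2960 lower and a median of 0.40. The cause of these moves was not tested. With the COC number as a replicate block, 5951 genes were higher and 1691 lower, and among the 135 named genes it took 3 calls below the threshold (ATP5A1, PDGFRA and TUBGCP6), added SPARCL1 and changed no other call. Leaving out each COC gave 5681 to 6266 higher, 1490 to 1936 lower and a median of 0.89 to 1.03. Without COCs 190, 191 and 192, chosen after seeing the data, 5800 were higher and 1643 lower.

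Of the 135 named genes, 103 kept their call in every alternative, 21 lost it in at least 1, and 8 changed sign in at least 1. Of the 11 not called as deposited, 8 were called lower under at least 1 scaling (CADM4, CCND3, CTNNB1, MCM7, PSMD2, RPS27A, SPARCL1 and SREBF2). CTNNB1 fell to -0.35 with the same sum, -1.52 with the 75th percentile, -1.08 with median ratio with and without the block, -1.20 without the 20 most abundant genes and -0.34 with the number of genes as a covariate, and ranged from -0.11 to 0.26 when each COC was left out (reversed without COC 186, 189 or 192). With the 75th percentile, median ratio (also with the block) and the sum without the 20 most abundant genes, CD9 was at -0.998, -0.60 and -0.74, MCM2 at -0.63, -0.27 and -0.43, MCM5 at -0.91, -0.49 and -0.63, MCM7 at -0.98, -0.56 and -0.70, and PRKAR1A at -0.50, -0.057 and -0.17. MCM5 was at -0.062 with the covariate, and EBP at -0.10 with the 75th percentile. PSMD2, at -0.12 as deposited, ranged from -0.23 to 0.084 when each COC was left out, with the sign changed without COC 187 or 190, and was at 0.19 without COCs 190 to 192.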
